A study of Mus musculus with 2 samples.

Results

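The genes described here are 33 mouse genes of glycolysis and of the transcriptional response to low oxygen, chosen by symbol from the 32285 genes of each deposited count matrix. They occupy 34 rows, because Aldoa is listed under 2 gene identifiers, which were summed (the second held 4 UMIs in the wild-type library and 0 in the other). The cells came from tumours grown from inoculated MC38 cells, a mouse colon adenocarcinoma line, and were collected on day 14 without treatment for droplet-based (10x) single-cell RNA sequencing. Wild-type mice (WT) gave 1 library and Ifnar1-SA mice gave the other; Ifnar1 is the gene of a type I interferon receptor subunit. What SA stands for, how many animals went into a library, and their strain, age and sex are not stated in the labels, and 1 label field names CD8 T cells although several lineages were present. With 1 library per genotype no difference has a replicate check, so "higher" and "lower" describe these libraries, no p-value is given, and every interval covers counting error only.

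Glycolysis splits glucose into pyruvate with a small yield of ATP, and cells that turn the pyruvate into lactate and export it can run the pathway without oxygen. When oxygen is short, the prolyl hydroxylases that mark HIF1A for destruction slow down, and the stabilised factor, paired with ARNT, binds the core motif RCGTG near its target genes. Those targets include most glycolytic enzymes, the glucose and lactate transporters, and genes of angiogenesis, mitophagy, lipid storage and collagen modification. In tumours both T cells and macrophages are known to use the pathway, in response to activation as well as to low oxygen.

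Barcodes with 1000 or more UMIs (unique molecular identifiers, which count captured transcripts), 500 or more genes and no more than 10% of UMIs from mitochondrial genes were used, 4058 in WT and 5001 in Ifnar1-SA. The libraries held 55497066 and 62732220 UMIs in all. Lineages were gated on UMIs: CD8 T cells on T cell receptor genes with Cd8a and Cd8b1, regulatory T cells (Treg) on the same genes with Foxp3, macrophages on C1q genes, and a last group on Rhox5, Tm4sf1 and Sdc2. Only barcodes that passed exactly 1 gate were used, because 239 WT and 398 Ifnar1-SA barcodes passed more than 1, most of them the T cell and macrophage gates together (195 and 350). This left 1012 WT and 701 Ifnar1-SA CD8 T cells, 344 and 504 Treg, 1404 and 1963 macrophages, and 174 and 190 cells of the last group. Marker lists went with the names of the T cells and macrophages: 5 T cell markers summed to 2669.7 CPM or more in CD8 T cells and Treg and to 173 or less in macrophages and the last group, where CPM is UMIs per 1000000 UMIs of the lineage, and 5 Treg markers summed to 7169 and 7604 CPM in Treg against 1055 and 968 in CD8 T cells. The last gate was meant for tumour-like cells, but 5 of 5 epithelial markers were at 0 in WT and 4 of 5 in Ifnar1-SA, while the summed level of 4 fibroblast markers was 2069 and 1741 CPM; these cells are therefore called Rhox5-gated. T cells of the Ifnar1-SA library carried more macrophage RNA: the 6 macrophage markers summed to 375 CPM in WT and 1173 in Ifnar1-SA CD8 T cells, and to 482 and 1586 CPM in Treg. Y-linked UMIs were found in 145 CD8 T cells, 37 Treg and 351 macrophages of the Ifnar1-SA library and in at most 1 cell of each of these lineages in WT. Of the Rhox5-gated cells, 0 in WT and 2 in Ifnar1-SA held one. Xist without a Y-linked UMI was found in 9 WT and 11 Ifnar1-SA Rhox5-gated cells, against 979 and 461 CD8 T cells and 1359 and 1325 macrophages. Ptprc, a leukocyte gene, was at 2.41 and 2.25 CPM in Rhox5-gated cells and at 422 CPM or more in the other lineages. Which cells the Rhox5-gated ones are was not tested. The libraries shared 7 kept barcodes, where 2.99 would be shared by the size of the barcode list.

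Across lineages most members stood highest in Treg. Levels were compared for each gene across lineages and not between genes. Of the 33 members, 21 had their highest CPM in Treg in both libraries. Rhox5-gated cells were highest for 5, macrophages for 3 and CD8 T cells for 0. The other 4 (Hk2, Slc16a3, P4ha1 and Kdm3a) differed between the libraries in their highest lineage. These counts used no minimum level, and the share of all genes highest in Treg was not counted without one. Of the 21 members highest in Treg, 19 reached 50 CPM there in both libraries. In both libraries 25 members reached 50 CPM in their highest lineage, which was the same lineage for 23 of them, and 8 of the 25 had the same highest lineage and stood there at least 4 times above their lowest. The same was true of 34.8% of all 3960 genes tested, so the count over any lineage is near the background. By lineage, 6 of the 8 were highest in Treg, where 8.23% of all tested genes met the rule, 1 in macrophages (11.5%) and 1 in Rhox5-gated cells (10.6%); 0 were highest in CD8 T cells (4.44%).

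**Figure D1:**
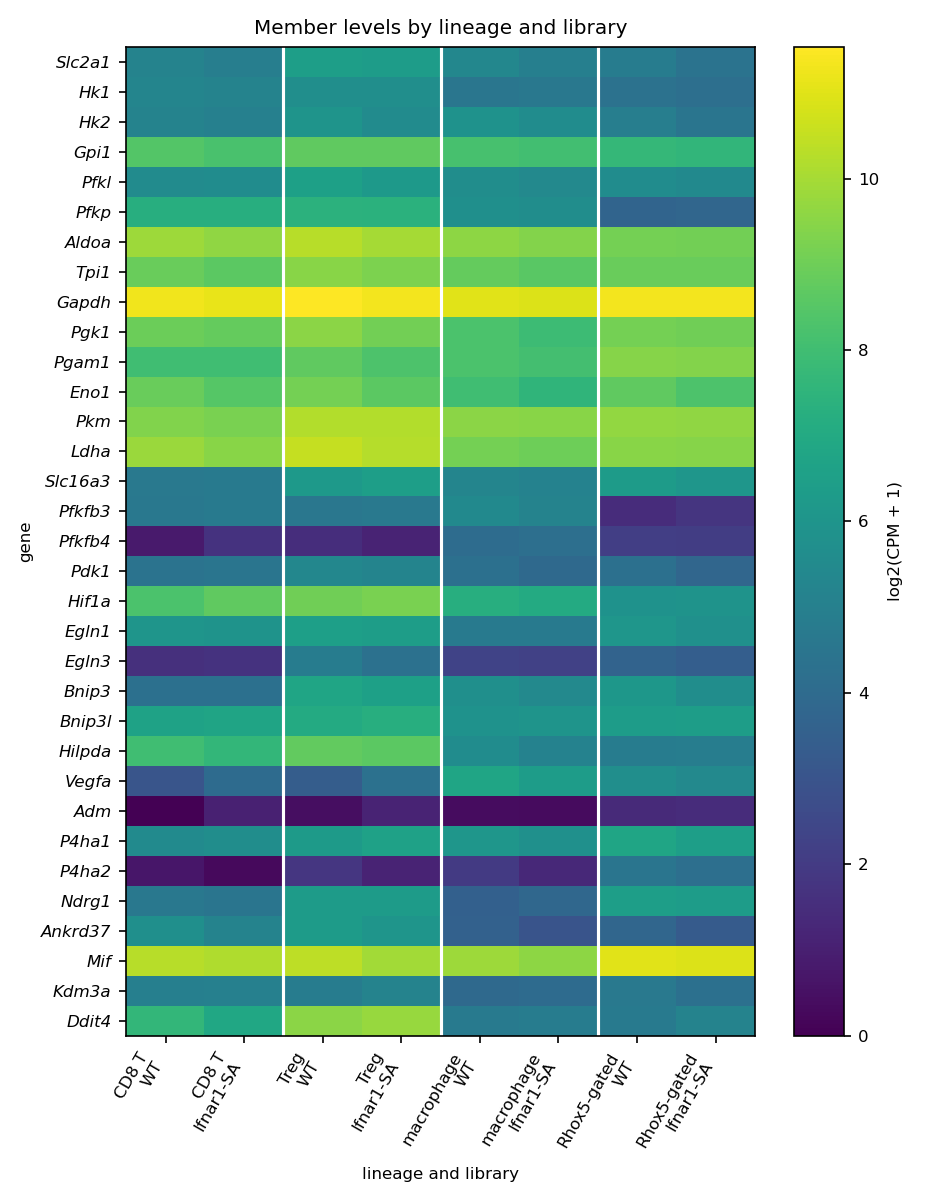
Level of each of the 33 members as log2(CPM + 1), by lineage and library; colours are to be compared along a row. Ddit4, Hilpda and Hif1a are brightest in both Treg columns, Vegfa in both macrophage columns.

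The enzymes of glycolysis were found in all 4 lineages, and of the 13 enzyme genes all but Pgam1 and Hk2 had their highest CPM in Treg in both libraries. Ldha, the lactate dehydrogenase subunit that turns pyruvate into lactate, stood at 1483 CPM in WT and 1227 in Ifnar1-SA Treg, 901 and 726 in CD8 T cells, 559.6 and 508 in macrophages and 719.7 and 703 in Rhox5-gated cells. Treg lay above the other lineages in both libraries, without overlap of the intervals. Pgam1, a phosphoglycerate mutase, was instead highest in Rhox5-gated cells, at 699.8 and 668 CPM against 419.8 and 316 in Treg, and Hk2, a hexokinase, stood at 62.7 CPM in WT Treg but at 45.8 in Ifnar1-SA Treg, beside 48.3 in macrophages, with overlapping intervals. Pfkp, the platelet-type phosphofructokinase, had the widest range of the enzymes: 171 and 167 CPM in Treg, 150.04 and 151.38 in CD8 T cells, 53.0 and 49.8 in macrophages and 12.1 and 13.1 in Rhox5-gated cells, which is a 14.2-fold and 12.7-fold spread.

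Regulators and oxygen sensors were more uneven. Hif1a, the oxygen-regulated transcription factor subunit, was measured at 524 CPM in WT and 602 in Ifnar1-SA Treg, 305 and 425 in CD8 T cells, 151 and 131 in macrophages and 57.9 and 60.3 in Rhox5-gated cells. The order of lineages was the same in both libraries and no intervals of neighbouring lineages overlapped. Egln3, a prolyl hydroxylase that is itself a HIF target, reached 28.1 and 18.8 CPM in Treg against 2.03 and 2.21 in CD8 T cells, 3.99 and 3.63 in macrophages and 11.8 and 10.0 in Rhox5-gated cells. Pfkfb3 and Pfkfb4, which set the level of the phosphofructokinase activator fructose 2,6-bisphosphate, were highest in macrophages (43.8 and 34.7 CPM, and 16.0 and 17.4 CPM). Pfkfb3 was lowest in Rhox5-gated cells, at 1.78 and 2.45 CPM. Pfkfb4 was instead lowest in CD8 T cells in WT and in Treg in Ifnar1-SA.

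The hypoxia targets divided by lineage. Ddit4, an inhibitor of mTORC1 signalling that lies at chr10:59949669-59951834 (GRCm38, minus strand), had the widest spread of the targets that reached 50 CPM: 735 CPM in WT and 858 in Ifnar1-SA Treg, 199.6 and 118 in CD8 T cells, 25.7 and 27.9 in macrophages and 25.6 and 34.3 in Rhox5-gated cells. Treg exceeded the lowest lineage 28.7-fold and 30.7-fold. At an equal depth of 2000 UMIs per cell, 68.8% of WT and 67.0% of Ifnar1-SA Treg held a Ddit4 UMI, against 22.4% and 15.6% of CD8 T cells, 4.64% and 4.73% of macrophages and 3.45% and 3.16% of Rhox5-gated cells (without thinning, 84.3% and 82.7%, 43.9% and 31.0%, 14.5% and 15.9%, and 50% and 55.8%). Hilpda, which inhibits triglyceride breakdown and so favours lipid droplets, was also highest in Treg and next in CD8 T cells, with 437 and 401 CPM in Treg, 254 and 196 in CD8 T cells, 47.1 and 34.1 in macrophages and 27.8 and 28.6 in Rhox5-gated cells. Ankrd37, an ankyrin-repeat gene known as a HIF target, was higher in T cells than elsewhere, at 79.1 and 64.0 CPM in Treg and 52.2 and 35.1 in CD8 T cells against 11.1 and 7.09 in macrophages.

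Other targets left CD8 T cells lowest. Bnip3, a mitophagy receptor, stood at 109 and 91.7 CPM in Treg, 67.8 and 49.96 in Rhox5-gated cells, 53.0 and 41.7 in macrophages and 17.9 and 18.1 in CD8 T cells. Vegfa, the angiogenic growth factor, was a macrophage gene here: 108 and 81.7 CPM in macrophages and 50.4 and 42.2 in Rhox5-gated cells, against 9.47 and 18.5 in Treg and 7.22 and 15.5 in CD8 T cells. Both T cell values were higher in the library whose T cells carried more macrophage RNA; the part of that RNA was not tested. They also lay below the 49.5 and 64.9 CPM of barcodes with 10 to 100 UMIs, which hold free RNA. Ndrg1, a stress-responsive differentiation gene, was highest in Rhox5-gated cells (88.7 and 82.9 CPM) and nearly as high in Treg (79.1 and 79.8), where the intervals overlapped in both libraries, and lowest in macrophages (10.6 and 13.6). Mif, a cytokine, was also highest in Rhox5-gated cells, at 2078 and 1939 CPM. Adm, which encodes the vasodilator peptide adrenomedullin, stayed at or below 1.74 CPM in every lineage, and its 0 UMIs in WT CD8 T cells allow up to 0.380 CPM (3 UMIs).

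Members of the same enzyme or transporter family took unequal shares of their family's UMIs, and these shares were compared between lineages only. Hk3, a hexokinase outside the module, held 45.5% of hexokinase UMIs in WT and 47.4% in Ifnar1-SA macrophages and at most 5.94% in the other lineages. Pfkp held 75.5% and 74.9% of phosphofructokinase UMIs in CD8 T cells, 64.3% and 69.2% in Treg, 50.1% and 53.2% in macrophages and 15.9% and 17.3% in Rhox5-gated cells. In those Rhox5-gated cells Pfkm, the muscle-type gene, took 20.7% and 24.4%, against at most 2.59% elsewhere. The intervals of the 2 phosphofructokinase shares in Rhox5-gated cells lay wholly outside those of the other lineages.

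Transporters showed the same kind of difference between the T cell types. Slc16a3 (MCT4), a lactate exporter, held 82.2% and 87.9% of the UMIs of the Slc16a1 and Slc16a3 pair in Treg and 55.2% and 57.9% in CD8 T cells. Slc2a1 (GLUT1), a glucose importer, held 75.4% and 69.2% of the Slc2a1 and Slc2a3 pair in Treg and 52.1% and 39.8% in CD8 T cells. Macrophages and Rhox5-gated cells used Slc2a1 almost alone, with at least 89.0% of the pair. Ldha made up at least 93.9% of lactate dehydrogenase UMIs in each lineage and library, and Pdk4 had no UMI in any of them.

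The pair of T cell types was taken up in detail after earlier results were seen. Between Treg and CD8 T cells, 28 members passed the minimum of a mean of 20 CPM and 30 UMIs over the pair in each library, and a member was counted when its ratio was at least 1.5-fold in both libraries. By that rule 12 members were higher in Treg, where 12.2% of 4900 tested genes were, and 0 were lower, against 4.39% of tested genes. The median log2 ratio of the 28 was 0.66 in WT and 0.54 in Ifnar1-SA, beside 0.15 and 0.14 over all tested genes, and 25 of the 28 were higher in Treg in both libraries. Since a member that is high only in Treg passes through Treg, the median is a description of those that passed. When barcodes entered every gate they passed, the count was 7 instead of 12. That setting included T cells also holding C1q transcripts, and put barcodes that passed both T cell gates in both groups. Under the other alternatives the count was 9 to 14.

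**Figure D2:**
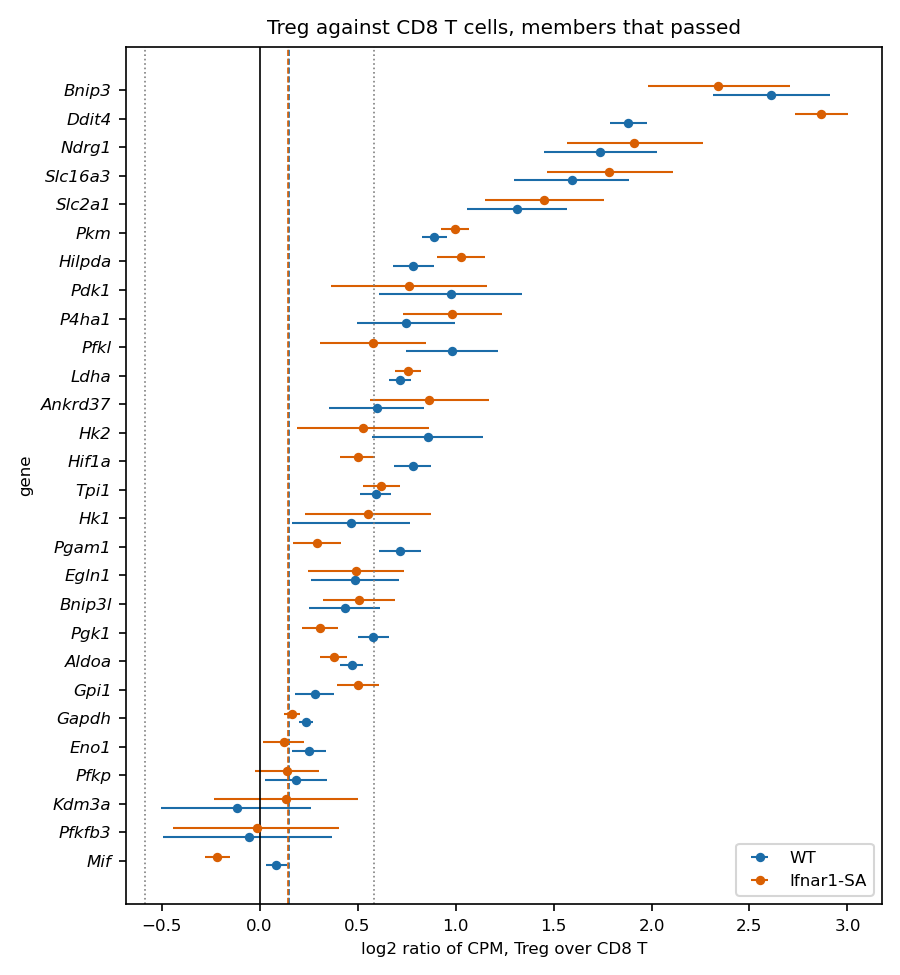
Log2 ratio of CPM in Treg over CD8 T cells for the 28 members that passed, with 95% counting intervals; dotted lines mark 1.5-fold and dashed lines the median of all tested genes in each library. Bnip3 and Ddit4 lie farthest to the right in both libraries and Mif lies on opposite sides of 0.

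The 12 members include both transporters, 3 of the 13 enzyme genes, Pdk1 and 6 hypoxia targets. Glucose uptake and lactate export were both included: Slc2a1 stood at 87.1 and 81.6 CPM in Treg against 35.1 and 29.8 in CD8 T cells (2.48-fold and 2.73-fold), and Slc16a3 at 72.5 and 86.6 against 24.1 and 25.2 CPM (3.01-fold and 3.44-fold). Of the enzymes, Pkm (pyruvate kinase) stood at 1193 and 1177 CPM in Treg against 643 and 589 in CD8 T cells, and Ldha was 1.65-fold and 1.69-fold higher. Tpi1 (triosephosphate isomerase) was 1.51-fold and 1.54-fold higher, just past the threshold. Pdk1, which holds pyruvate out of the mitochondrial cycle, was 1.97-fold and 1.69-fold higher. Hypoxia targets gave the largest ratios, with Bnip3 6.10-fold and 5.06-fold higher in Treg, Ddit4 3.69-fold and 7.28-fold, and Ndrg1 3.34-fold and 3.76-fold. Hilpda (1.72-fold and 2.04-fold), P4ha1, a collagen prolyl hydroxylase (1.68-fold and 1.98-fold), and Ankrd37 (1.52-fold and 1.82-fold) complete the list. Slc2a1, Pkm, Slc16a3, Bnip3, P4ha1, Ndrg1 and Ddit4 met the rule under each of the 13 alternatives, whereas Tpi1 met it under 8 and Ankrd37 under 7.

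Among members just outside the threshold were Pfkl (1.98-fold and 1.49-fold), Hif1a (1.72-fold and 1.41-fold) and Hk2 (1.81-fold and 1.44-fold). Egln3 was 13.9-fold and 8.49-fold higher in Treg but too low in CD8 T cells to pass. Gapdh (1.18-fold and 1.12-fold) and Eno1 (1.19-fold and 1.09-fold) differed little, and Mif was 1.06-fold and 0.861-fold. Genes of the mitochondrial respiratory chain and tricarboxylic acid cycle gave another picture: of 22 listed, 22 passed, 0 were past 1.5-fold in either direction in both libraries, and their median log2 ratio was 0.03 and -0.05. Of 32 other hypoxia genes 10 passed and 4 were higher in Treg (Mxi1, Ero1l, Cited2 and Cxcr4) and 1 lower (Bhlhe40), while of 27 other glycolysis genes 8 passed and 0 were past the fold.

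Promoters of members that stood higher in Treg show where the HIF core motif occurs, and a few are printed for that reason. The sequences are RefSeq windows (GRCm38.p6) of 250 bases before the annotated start, cut to the longest stretch that no annotated exon covers; they run 5′ to 3′ on the gene's strand, and capitals mark ACGTG or GCGTG on either strand.
Bnip3, chr7:138909520-138909756, minus strand: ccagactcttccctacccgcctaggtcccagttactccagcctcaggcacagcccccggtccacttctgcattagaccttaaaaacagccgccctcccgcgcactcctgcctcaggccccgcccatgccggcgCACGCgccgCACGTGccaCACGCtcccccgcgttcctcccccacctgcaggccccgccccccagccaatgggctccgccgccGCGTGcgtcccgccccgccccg
Ankrd37, chr8:45999868-46000100, minus strand: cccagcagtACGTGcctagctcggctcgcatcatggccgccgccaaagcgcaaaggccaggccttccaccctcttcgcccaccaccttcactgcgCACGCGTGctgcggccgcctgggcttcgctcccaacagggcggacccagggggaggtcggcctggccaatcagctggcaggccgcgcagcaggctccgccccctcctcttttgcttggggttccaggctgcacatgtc
Ddit4, chr10:59951835-59952020, minus strand: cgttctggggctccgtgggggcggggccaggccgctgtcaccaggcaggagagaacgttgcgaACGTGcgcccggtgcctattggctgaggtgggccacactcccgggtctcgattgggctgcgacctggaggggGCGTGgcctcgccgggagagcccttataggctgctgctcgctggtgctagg
Slc16a3, chr11:120948817-120949052, plus strand: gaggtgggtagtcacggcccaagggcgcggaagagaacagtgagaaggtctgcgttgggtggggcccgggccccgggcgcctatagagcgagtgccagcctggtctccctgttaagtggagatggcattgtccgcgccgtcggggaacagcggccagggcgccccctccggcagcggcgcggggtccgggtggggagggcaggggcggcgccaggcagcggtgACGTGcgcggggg
P4ha1, chr10:59323046-59323295, plus strand: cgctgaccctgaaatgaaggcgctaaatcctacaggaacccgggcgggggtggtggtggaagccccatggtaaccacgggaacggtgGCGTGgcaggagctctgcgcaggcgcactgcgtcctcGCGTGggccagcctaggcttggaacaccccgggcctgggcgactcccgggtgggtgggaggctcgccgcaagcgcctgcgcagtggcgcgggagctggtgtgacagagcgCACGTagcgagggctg
The printed Bnip3 stretch holds 2 occurrences of ACGTG and 3 of GCGTG, counted on both strands, that of Ankrd37 1 and 2, that of Ddit4 1 and 1, that of Slc16a3 1 and 0, and that of P4ha1 1 and 2. Matches on opposite strands that overlap were both counted, as at the palindrome CACGTG of Bnip3, where ACGTG is read on each strand. Of the 31 members with a window, 28 (90.3%) held ACGTG or GCGTG in the full 250 bases of at least 1 annotated start, against 41.5% of 27025 genes by the same count; Gpi1, Tpi1 and Mif did not. ACGTG alone was in 61.3% of the members and 18.5% of all genes. A match describes letters only. Neither base composition nor the number of annotated starts per gene was matched between members and other genes. Ndrg1 and Bnip3l had no window.

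Macrophages stood below Treg for most of the module. Of 29 members that passed in that pair, 21 were lower in macrophages past 1.5-fold in both libraries (31.6% of all tested genes) and 1, Vegfa, was higher (16.4%). Against CD8 T cells 10 of 27 were lower in macrophages (26.7% of all tested genes) and 3, Hk2, Bnip3 and Vegfa, were higher (20.7%). Rhox5-gated cells were lower than Treg for 15 of 28 members (24.9%) and higher for 3, Pgam1, Vegfa and Mif (28.3%).

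Macrophages with and without Arg1 transcripts differed across the module. Arg1 encodes arginase 1, an enzyme of tumour-associated macrophages, and is not a member. It was, however, on the list of other hypoxia genes used above. The split is therefore not independent of the hypoxia genes, and higher members in cells with Arg1 describe genes that go together. Each macrophage was thinned to 2000 UMIs and assigned by whether an Arg1 UMI remained, which gave 386 cells with and 993 without in WT and 363 and 1559 in Ifnar1-SA; levels were then taken from all their UMIs. Of 25 members that passed, 14 were at least 1.5-fold higher in cells with Arg1 in both libraries, where 1.38% of 4644 tested genes were, and 0 were lower, against 0.28%. Their median log2 ratio was 0.75 in WT and 0.63 in Ifnar1-SA, beside -0.04 and -0.02 over all tested genes, and all of the 25 but Hk1 were higher in both libraries.

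**Figure D3:**
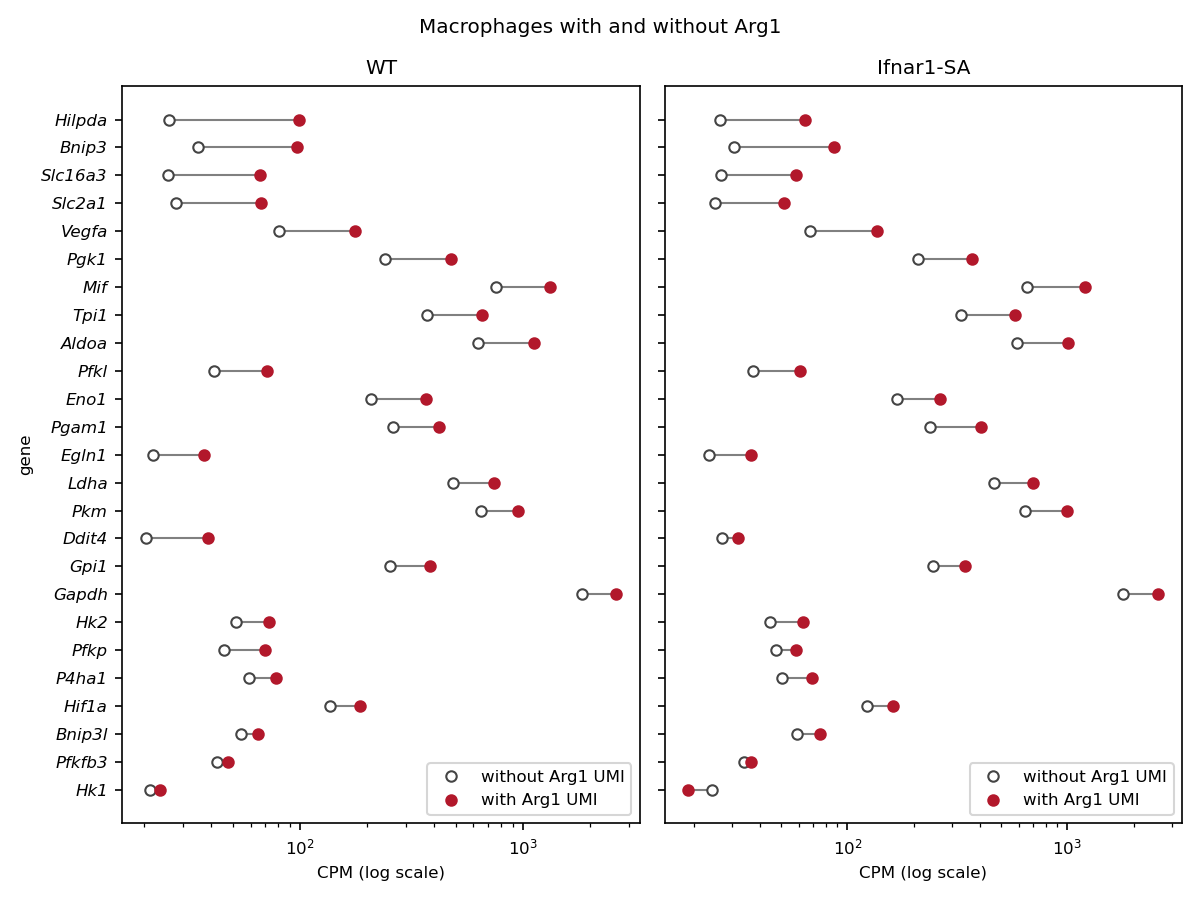
CPM (log scale) of the 25 members that passed in macrophages without (open) and with (filled) an Arg1 UMI, per library. Filled points lie to the right of open ones for each gene in both panels except Hk1 in Ifnar1-SA.

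The strongest differences were in hypoxia targets and transporters. Hilpda stood at 99.1 CPM in cells with Arg1 and 25.7 without in WT, and at 64.2 and 26.5 in Ifnar1-SA. Bnip3 was measured at 96.7 and 34.9 CPM in WT and 86.8 and 30.5 in Ifnar1-SA, and Vegfa at 176 and 80.3 and at 136 and 67.7 CPM. For these genes the lower value with Arg1 exceeded the higher value without it. Slc16a3 (66.2 and 25.6 CPM, then 58.6 and 26.7) and Slc2a1 (66.8 and 27.9, then 51.4 and 25.0) were likewise higher in cells with Arg1, without overlap between the libraries' values.

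Enzymes along the pathway were also higher, by smaller ratios. Pgk1, a phosphoglycerate kinase, was at 474 CPM with and 242 without Arg1 in WT and at 369 and 209 in Ifnar1-SA. Log2 ratios in WT and Ifnar1-SA were 0.82 and 0.81 for Tpi1, 0.82 and 0.77 for Aldoa (aldolase), 0.82 and 0.65 for Eno1 (enolase), 0.69 and 0.76 for Pgam1, 0.78 and 0.71 for Pfkl (the liver-type phosphofructokinase) and 0.62 and 0.59 for Ldha. Mif (0.80 and 0.87) and Egln1, the main prolyl hydroxylase acting on HIF1A (0.75 and 0.63), complete the 14. Gapdh (0.51 and 0.53) and Pkm (0.55 and 0.63) lay under 1.5-fold in at least 1 library. Hif1a itself was 0.45 and 0.39 higher. Egln3 (9.54 and 1.70 CPM in WT, 11.7 and 1.63 in Ifnar1-SA) and Ankrd37 (22.8 and 6.23, then 17.6 and 4.50) showed wide ratios below the minimum level.

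Other gene lists were compared between the same macrophages. The 22 respiratory chain and tricarboxylic acid cycle genes summed to 5935 CPM with and 6140 without Arg1 in WT and to 6154 and 6307 in Ifnar1-SA. T cell markers summed to 107 and 84.7 CPM in WT and 135 and 183 in Ifnar1-SA, fibroblast markers to 8.56 and 14.6 and to 11.0 and 107, and the cycling genes Mki67 and Top2a to 73.6 and 128 and to 99.4 and 112. Fibroblast markers were lower in the cells with Arg1, most of all in Ifnar1-SA, and the part of these lists in the result was not tested. Median UMIs per cell were 12206 and 11719 in WT and 11381 and 10951 in Ifnar1-SA. The count of 14 was 9 when barcodes entered every gate they passed, 23 when cells with at least 3 Arg1 UMIs were set against those with 0, a threshold chosen after the data were seen, and 11 to 19 otherwise. Slc2a1, Aldoa, Tpi1, Pgk1, Slc16a3, Bnip3, Hilpda, Vegfa and Mif met the rule under each of the 13 alternatives that kept the split at 1 UMI, and Ldha under 5.

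Cell cycle and cytotoxic state were weaker divides. In CD8 T cells with a Mki67 or Top2a UMI at equal depth, 22 of 27 members were higher in both libraries than in cells without. The share of all genes higher in both was not counted. The members' median log2 ratio was 0.26 in WT and 0.31 in Ifnar1-SA, beside 0.13 and 0.10 over all tested genes. Past 1.5-fold there were 0 members in either direction, where 8.27% of all tested genes were higher and 0.924% lower. In Treg 0 of 29 members were past the fold (8.49% and 2.46% of all tested genes). Cycling macrophages had 1 of 25 members lower (0.686%) and 0 higher (7.72%): Vegfa, at 74.9 against 114 CPM in WT and 55.6 against 85.2 in Ifnar1-SA. Cycling Rhox5-gated cells had 1 of 22 lower (1.01%) and 0 higher (5.53%): Ddit4, at 18.6 against 28.8 and 23.4 against 38.4 CPM. CD8 T cells with and without Gzmb, a cytotoxic granule protease, differed past the fold for 0 of 27 members (0.686% of tested genes higher and 0.729% lower).

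Enzymes and targets were also compared per cell. After thinning to 2000 UMIs, Pearson's r between a cell's summed enzyme UMIs and summed target UMIs was 0.33 in 926 WT and 0.24 in 635 Ifnar1-SA CD8 T cells, 0.23 in 324 and 0.28 in 469 Treg, and 0.38 in 1379 and 0.30 in 1922 macrophages. In Rhox5-gated cells r was 0.29 and 0.16, while Spearman's rho in WT was -0.04. For reference, r between enzyme UMIs and the UMIs of the respiratory chain and tricarboxylic acid cycle genes was 0.32 and 0.19 in CD8 T cells, 0.22 and 0.11 in Treg, 0.12 and 0.05 in macrophages and 0.07 and 0.16 in Rhox5-gated cells. Cells of a lineage share a library, and the median cell held 0 to 3 target UMIs, so these values describe sparse counts.

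Between genotypes most members were slightly lower in Ifnar1-SA, and 1 gene passed 1.5-fold. A member passed in a lineage with a mean of at least 20 CPM and 30 UMIs over both libraries; 20 members passed in each of the 4 lineages, 30 in at least 1, and Pfkfb4, Adm and P4ha2 in none. The lineages of a genotype come from 1 library, so their values are set side by side and do not support each other. Because Y-linked UMIs lay almost only in Ifnar1-SA cells, animal sex may differ between the libraries as well. Its part in the ratios was not tested. Among T cells and macrophages with Xist and no Y-linked UMI, 70 of 81 single ratios kept their sign and 71 stayed within their reported interval.

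**Figure D4:**
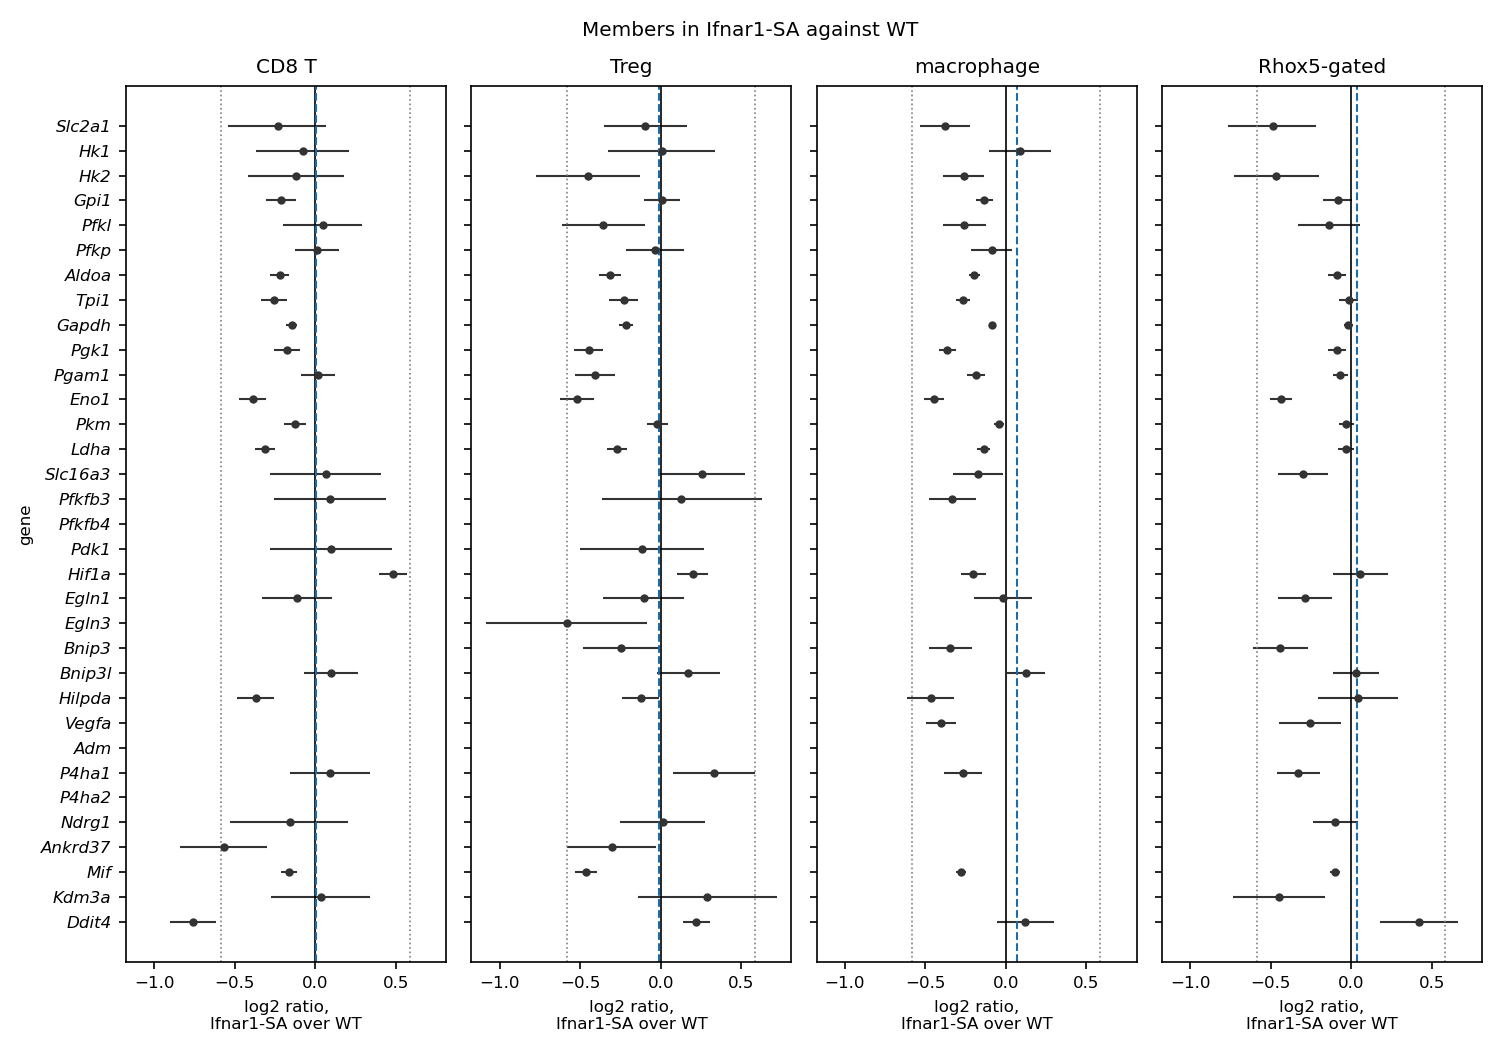
Log2 ratio of CPM, Ifnar1-SA over WT, for the members that passed in each lineage, with 95% counting intervals; dotted lines mark 1.5-fold and the dashed line the median of all tested genes. Most points lie left of the dashed line in macrophages, and Ddit4 in CD8 T cells is the point outside the dotted lines.

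In macrophages 22 of 25 members were lower in Ifnar1-SA and 20 had an interval wholly below 0, whereas 31.7% of the 4826 tested genes were lower and 631 had such an interval. The median log2 ratio of the 25 was -0.20, beside 0.07 over all tested genes, and 0 passed 1.5-fold in either direction (1.31% of tested genes higher and 0.829% lower). Hilpda went from 47.1 CPM in WT to 34.1 in Ifnar1-SA (log2 ratio -0.47, interval -0.61 to -0.32), Eno1 from 254 to 186 (-0.45, -0.51 to -0.39), Vegfa from 108 to 81.7 (-0.40, -0.50 to -0.31) and Slc2a1 from 39.2 to 30.2 (-0.38, -0.53 to -0.22). Bnip3l, Hk1 and Ddit4 were the 3 that were higher. The respiratory chain and tricarboxylic acid cycle genes had a median of 0.06 in the same cells.

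Arg1 moved with this result. Its level in macrophages was 339.5 CPM in WT and 177 in Ifnar1-SA, and at equal depth 28.0% of WT and 18.9% of Ifnar1-SA macrophages held an Arg1 UMI (52.7% and 40.1% without thinning). In a division added after the data were seen, within macrophages without Arg1 the median log2 ratio of the members was -0.13, and within those with Arg1 it was -0.19, beside 0.06 and 0.08 over all tested genes. Eno1 was lower in both kinds of macrophage (-0.31 and -0.48). Hilpda was lower in those with Arg1 (-0.63, past 1.5-fold) and stood at 0.04 in those without. Ddit4 was at 0.41 in those without and -0.28 in those with Arg1, whose interval reached above 0.

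In CD8 T cells 17 of 27 members were lower and 10 higher, where 49.3% of all tested genes were lower. The median was -0.13 beside 0.00 over all tested genes. Ddit4 went from 199.6 to 118 CPM (-0.76, interval -0.90 to -0.62) and was the single member past 1.5-fold, against 2.58% of tested genes lower and 3.24% higher. Ankrd37 (52.2 to 35.1 CPM, -0.57) lay just inside the fold, and Eno1 (473 to 361, -0.39), Hilpda (254 to 196, -0.37) and Ldha (901 to 726, -0.31) followed. In barcodes of 10 to 100 UMIs Ddit4 was at 83.4 CPM in WT and 123 in Ifnar1-SA, so only the WT cells stood above that level. Hif1a was higher, at 305 CPM in WT and 425 in Ifnar1-SA (0.48, interval 0.39 to 0.57). Cycling cells moved with the result: at equal depth 26.9% of WT and 16.5% of Ifnar1-SA CD8 T cells held a Mki67 or Top2a UMI (40.4% and 26.2% without thinning). In the 603 WT and 517 Ifnar1-SA CD8 T cells without either UMI before thinning, the median was 0.02. Ddit4 stood at -0.56 there, inside the fold, and Hif1a at 0.54. That choice of cells depends on their depth. Split at equal depth, 677 WT and 530 Ifnar1-SA cells held neither UMI. Ddit4 was at 174 and 98.0 CPM in them, Eno1 at 429 and 347, Hilpda at 241 and 176, and Hif1a at 303 and 434. The members' median was not taken for that split.

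Treg had 19 of 29 members lower and 10 higher, where 51.6% of all tested genes were lower. The median was -0.12 beside -0.01 over all tested genes, and 0 were past the fold (4.4% of tested genes higher and 2.8% lower). Among enzymes, 11 of 13 were lower, led by Eno1 (563 to 393 CPM, -0.52), Hk2 (62.7 to 45.8, -0.45) and Pgk1 (746 to 547, -0.45). Mif went from 1354 to 980.3 CPM (-0.47), and Egln3 from 28.1 to 18.8 (-0.58, interval -1.09 to -0.08), just inside the fold. P4ha1 (76.5 to 96.2 CPM, 0.33), Ddit4 (735 to 858, 0.22) and Hif1a (524 to 602, 0.20) were higher. When barcodes entered every gate they passed, these values were -0.02, -0.06 and -0.01. The respiratory chain and tricarboxylic acid cycle genes also had a negative median here, at -0.16.

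Rhox5-gated cells had 20 of 24 members lower and 4 higher, where 39.7% of all tested genes were lower. The median was -0.09 beside 0.04 over all tested genes, and 0 were past the fold (0.222% of tested genes higher and 1.05% lower). Slc2a1 (27.8 to 19.8 CPM, -0.49), Hk2 (29.6 to 21.5, -0.46), Eno1 (424 to 313, -0.44) and Bnip3 (67.8 to 49.96, -0.44) were among the lower ones, and Ddit4 was higher (25.6 to 34.3, 0.42). Both Ddit4 values lay below those of the low-UMI barcodes that hold free RNA, where Ddit4 was also higher in Ifnar1-SA. The part of free RNA in this ratio was not tested. Before thinning, 65 WT and 77 Ifnar1-SA cells held no Mki67 or Top2a UMI, a choice that depends on depth. In them the median was -0.52, with 10 of 27 members past 1.5-fold, beside 0.03 and 4.09% over all tested genes. Split at equal depth, 132 WT and 153 Ifnar1-SA cells held neither UMI. Slc2a1 was at 30.4 and 18.5 CPM in them, Eno1 at 421 and 301, Aldoa at 643 and 563, Pkm at 837 and 786, and Ddit4 at 28.8 and 38.4. The members' median was not taken for that split. The reads of Eno1 may be split with its near copy Eno1b, which held 319 UMIs in WT and 300 in Ifnar1-SA kept cells against 17198 and 13682 for Eno1.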

How the data were processed

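Both libraries were analysed from the raw UMI counts that the authors deposited, which, per the file headers, come from Cell Ranger 4. The submitters' processing notes name mm10; which gene annotation and options were used is not stated there. The deposited count matrices list all barcodes, so cells were selected here. The genes, lists and gates were chosen with earlier results of these data known, and the use of barcodes passing exactly 1 gate departs from the gates as proposed, which are an alternative. No doublet caller was run; barcodes in more than 1 gate were left out. Python 3.11.15 with numpy 2.4.6, scipy 1.17.1 and pandas 2.3.3 summed UMIs per lineage and library. CPM ratios have exact conditional binomial 95% intervals and shares exact Clopper-Pearson ones; PCR and sampling of animals are not covered. No test was made with 1 library per group. Genes were named when past 1.5-fold between libraries, 4-fold between lineages at 50 CPM, or 1.5-fold in a split within a lineage; other members named were chosen after their values were seen. Ratios and intervals were tried on simulated Poisson counts, the model the intervals assume. That trial cannot show how they hold where UMIs gather in few cells.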

Additional observations from a re-analysis of the deposited data

Results flagged for a closer look

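For 3 members the log2 ratios of Ifnar1-SA over WT pointed in opposite directions in different lineages, with each interval wholly off 0. The differences between lineages were not tested, and the lineages share the libraries. Hif1a was at 0.48 in CD8 T cells and 0.20 in Treg but at -0.20 in macrophages. P4ha1 was at 0.33 in Treg but at -0.27 in macrophages and -0.33 in Rhox5-gated cells. Ddit4 was at 0.22 in Treg and 0.42 in Rhox5-gated cells but at -0.76 in CD8 T cells. In Rhox5-gated cells of both libraries Ddit4 lay below its level in the low-UMI barcodes that hold free RNA. That free-RNA level was itself higher in Ifnar1-SA, and its part in the 0.42 was not tested. When barcodes entered every gate they passed, the Treg values were -0.01 for Hif1a, -0.02 for P4ha1 and -0.06 for Ddit4.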

How the results depend on the processing

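The settings tried were 13 for each lineage, and 2 more for macrophages split by Arg1; cells with Xist and no Y-linked UMI were too few among Rhox5-gated cells (9 and 11), so that setting was not run there. The members' median log2 ratio stayed within the members' typical interval half-width of the reported value in Treg (-0.19 to -0.01) and macrophages (-0.27 to -0.13) under every setting run. Among cells without Mki67 or Top2a, chosen before thinning and so by depth as well, this median moved to 0.0219 in CD8 T cells. In Rhox5-gated cells chosen in the same way it moved to -0.5241. The cause was not tested. Counts past 1.5-fold are small and moved in both directions. In CD8 T cells, 1 as reported, the count was 2 with cells thinned, gates overlapping, a 5% mitochondrial maximum, other totals or without the 5 highest cells, 4 with no filter on low values (more genes tested) and 0 without cycling cells. In Treg, 0 as reported, it was 2 thinned or with cells weighted equally, 1 without cycling cells, at a 20% mitochondrial maximum or with other totals, and 4 with no filter. In macrophages, also 0, it was 1 thinned, 1 among cells with Arg1, 1 with stricter gates and 2 with no filter. In Rhox5-gated cells, also 0, it was 1 thinned, 2 with stricter gates and 10 without cycling cells. With gates overlapping, the count of members higher in Treg than CD8 T cells was 7 and that in macrophages with Arg1 was 9; with at least 3 Arg1 UMIs the latter was 23. Of the 105 single ratios between genotypes, 78 kept their sign when cells were thinned and 87 without cycling cells. The count was 88 with gates overlapping, 88 with cells weighted equally, 104 when centred on all tested genes and 105 with a UMI minimum of 2000. Within their reported interval stayed 51 when thinned, 57 without cycling cells and 93 when centred. No paired analysis was possible because each genotype is 1 library.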

Other observations

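Kept cells that passed no gate, 885 in WT and 1245 in Ifnar1-SA, carried the module as well. Ddit4 stood at 184 CPM in WT and 209 in Ifnar1-SA in them, Hilpda at 169.7 and 127, Vegfa at 76.3 and 79.1, Bnip3 at 49.9 and 48.1 and Ndrg1 at 48.8 and 49.0. In barcodes of 10 to 100 UMIs, which hold free RNA, Ddit4 was at 83.4 and 123 CPM, Hilpda at 147 and 155, Vegfa at 49.5 and 64.9 and Bnip3 at 30.1 and 27.7. Ddit4 and Hilpda were therefore lower in macrophages and Rhox5-gated cells than in these barcodes, and Bnip3 was lower in CD8 T cells.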
